A study of Mus musculus with 9 samples.

Results

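The genes of retinoid storage and retinoic acid turnover were followed across the livers of mice on a normal diet, a high-fat diet, and a high-fat diet with a polymethoxyflavone-rich fraction (PRF). The members were 9 genes chosen by symbol: Lrat, Rbp4, Retsat, Rdh16, Rdh11, Aldh1a1, Cyp26a1, Cyp26b1, and Rarb. All 9 were found above 0 in at least 1 liver, among 23183 gene symbols in the tables. Liver RNA of 9 male C57BL/6J mice at postnatal day 100 was sequenced, with 1 library per mouse and 3 mice per group. The ND group (mice 6, 7, and 9) ate a diet with 14% fat and the HFD group (mice 1, 2, and 3) a diet with 60% fat, both for 10 weeks. The diets were products of different makers and also differed in carbohydrate, so ND differs from the other groups in more than fat. The PRF 50 group (mice 3, 9, and 10) ate the HFD for the same 10 weeks and received 50 mg/kg of PRF by mouth each day in the last 5 weeks. PRF was prepared from the leaves of Jinkyool, a citrus tree, and its main components are tangeretin, nobiletin, and sinensetin. The mouse numbers carry no pairing between groups.

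The liver takes up vitamin A, stores most of the body's retinyl esters in its stellate cells, and releases retinol to the blood bound to a carrier protein made by hepatocytes. Retinol is oxidized to retinal by dehydrogenases and then to retinoic acid by aldehyde dehydrogenases. Retinoic acid switches on genes through nuclear receptors that sit on paired half-sites in DNA, and enzymes of the Cyp26 family break it down.

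The promoters of the members were searched for such paired half-sites. All 9 members had a RefSeq promoter window (GRCm38.p6, 250 bases before to 50 bases after the start). The half-site was spelled AGGTCA. It was also allowed to read AGTTCA. The further spellings allowed were GGGTCA with the first base changed and also GGTTCA with both changes. A match needed 2 half-sites on the same strand, 1, 2, or 5 bases apart, and both strands were searched. With 5 bases between them (a direct repeat named DR5), windows of Cyp26a1 and Rarb matched. The same search matched 31 of 27025 genes (0.115%). The spacings of 1 and 2 bases matched 0 of the 9 members, against 0.263% and 0.311% of the genes. Both matches are printed 5′ to 3′ on the strand of the gene, with the DR5 in capitals, to show where in the promoter the repeat lies and how its half-sites are spelled. In Cyp26a1 the repeat reads on the opposite strand of the gene, 32 to 16 bases before the RefSeq start, at chr19:37697736-37697797 (plus strand). That stretch was cut to end just before the GENCODE start of Cyp26a1, so that it overlaps no GENCODE gene or exon. The repeat itself also ends before that start. In Rarb it reads on the gene's strand, 53 to 37 bases before the RefSeq start, at chr14:16575507-16575535 (minus strand). That stretch lies inside the GENCODE span of Rarb and in the first exon, 5′ UTR, of 2 of its transcripts.
Cyp26a1: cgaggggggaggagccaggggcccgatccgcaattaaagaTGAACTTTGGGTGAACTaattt
Rarb: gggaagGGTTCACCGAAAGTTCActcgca
The matches are letters found by a search, and binding of a receptor was not measured here.

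The deposited values are on a log2 scale and were read as log2(FPKM + 1), where FPKM counts fragments per kilobase of a transcript, scaled for the depth of the library. Differences on this scale understate the change of genes with low values. From the steps between low FPKM values, the depth was estimated at 11000000 to 17900000 fragments per liver. The estimates were 11900000, 12900000, and 12600000 for ND, 11400000, 13300000, and 17900000 for HFD, and 11100000, 17100000, and 11000000 for PRF 50 livers, so the groups overlapped in depth. Of 12 hepatocyte markers, 11 were found and 10 reached the level tested, with Apoa2 the most abundant at a mean of 18940 FPKM. Alb, the albumin gene, was listed at 0 in all 9 livers, so a listed 0 is no proof of silence in these tables. The highest log2 value was 22.44, of Rnu6 in HFD mouse 2, while the highest value of each other liver was 14.10 to 14.64. What that value does to the fits was not tested.

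Each comparison was tested with limma on the 6 livers of its groups, over genes averaging 1 FPKM or more in them, and a gene was called at a Benjamini-Hochberg adjusted p under 0.05. In every comparison 8 of the 9 members were tested, and Cyp26b1 was below the minimum. PRF 50 and HFD livers differed in 3 members, Retsat, Rdh16, and Aldh1a1, all lower in PRF 50, while 3.59% of 10084 genes were called. HFD and ND livers differed in 1 member, Cyp26a1, lower in HFD, while 1.33% of 9978 genes were called. PRF 50 and ND livers also differed in Cyp26a1 alone, lower in PRF 50, with 0.458% of 10051 genes called. By the criterion of an unadjusted p under 0.05 and a fold change above 2, the members passing were Retsat and Rdh16 in PRF 50 vs. HFD (2.1% of all genes), Cyp26a1 in HFD vs. ND (1.34%), and Cyp26a1 in PRF 50 vs. ND (1.76%). The values of the groups did not overlap for 4 of the 8 tested members in each comparison. Over all genes, 26.2% did so in PRF 50 vs. HFD, 20.7% in HFD vs. ND, and 19.9% in PRF 50 vs. ND. The median log2 fold change of the tested members was -0.13 in PRF 50 vs. HFD (-0.015 over all genes), 0.24 in HFD vs. ND (-0.0091), and -0.51 in PRF 50 vs. ND (-0.031). Each pair of comparisons shares a group of livers, so their results are not independent.

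The gene counts behind these shares moved with single livers. The count of 362 in PRF 50 vs. HFD became 15 without HFD mouse 3, 31 without HFD mouse 2, 40 without PRF 50 mouse 3, 168 without PRF 50 mouse 10, and 215 without HFD mouse 1. The 133 of HFD vs. ND became 35 without HFD mouse 3, 39 without ND mouse 7, 41 without HFD mouse 2, and 63 without ND mouse 6. The 46 of PRF 50 vs. ND became 4 without ND mouse 7, 8 without PRF 50 mouse 3, 17 without ND mouse 6, 26 without PRF 50 mouse 9, and 71 without PRF 50 mouse 10.

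**Figure D1:**
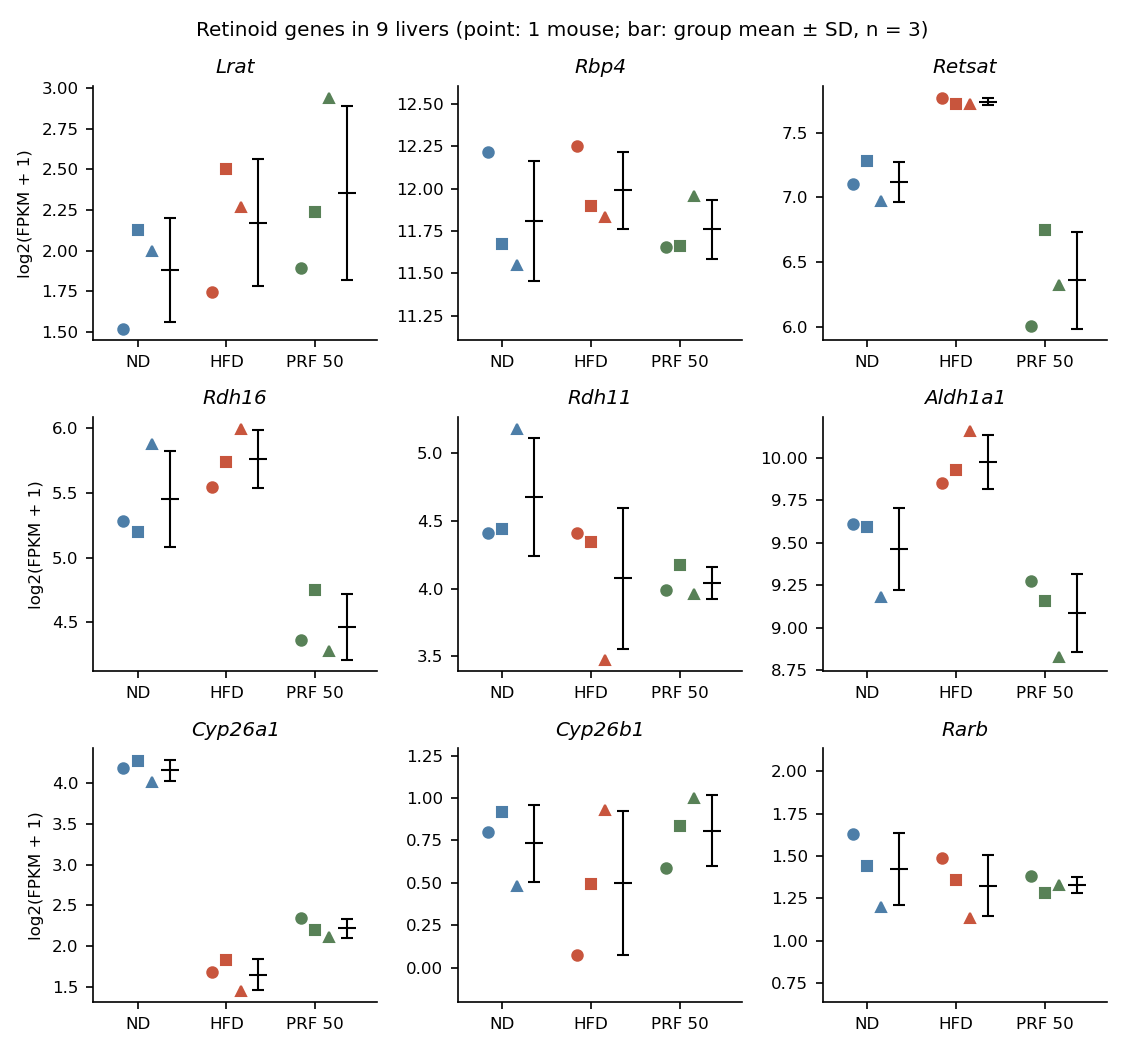
Deposited log2(FPKM + 1) values of the 9 members in ND, HFD, and PRF 50 livers, 1 panel per gene with its own y axis. Each point is 1 mouse (circle, square, and triangle for mice 6, 7, and 9 of ND, 1, 2, and 3 of HFD, and 3, 9, and 10 of PRF 50), and the bar is the group mean with its SD (n = 3). Cyp26a1 lies at 4.01 to 4.28 in ND and at 1.45 to 2.35 in the other livers.

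The members spanned a wide range of levels. By mean FPKM over the 9 livers they ranked Rbp4 (3754), Aldh1a1 (756.5), Retsat (144.7), Rdh16 (39.6), Rdh11 (19.2), Cyp26a1 (7.57), Lrat (3.58), Rarb (1.58), and Cyp26b1 (0.630). Cyp26a1 stood above Lrat through the ND livers alone (16.9 against 2.74 FPKM), and its mean was below that of Lrat in HFD (2.16 against 3.61) and in PRF 50 livers (3.66 against 4.37). The ranges over livers did not overlap between Rbp4 and Aldh1a1, between Aldh1a1 and Retsat, or between Rarb and Cyp26b1. Retsat (lowest liver 63.3 FPKM) and Rdh16 (highest liver 62.8 FPKM) were just apart, and the other neighbours overlapped.

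Lecithin retinol acyltransferase (Lrat; chr3:82892579-82903973, GRCm38, minus strand) forms the retinyl esters that stellate cells store. Its log2 values were 1.52, 2.13, and 1.9998 in ND, 1.74, 2.50, and 2.27 in HFD, and 1.89, 2.24, and 2.94 in PRF 50 livers. The groups overlapped, and PRF 50 mouse 10 was the highest of the 9. No comparison called it, with log2 fold changes of 0.19 for PRF 50 vs. HFD (95% interval -0.50 to 0.87), 0.29 for HFD vs. ND (-0.23 to 0.81), and 0.48 for PRF 50 vs. ND (-0.16 to 1.11). The opposite-strand gene Rbm46os, which covers the whole of Lrat, was listed at 0 in all 9 livers. Of the 21 stellate cell markers, 17 were tested and limma called 0 in each comparison. An unadjusted p under 0.05 was seen for 3 in PRF 50 vs. HFD, 2 in HFD vs. ND, and 2 in PRF 50 vs. ND. Without the share of all genes at that p, these counts show no difference in the markers. The summed stellate marker level was 135.9, 163.4, and 215.5 FPKM in ND, 179.6, 218.6, and 178.7 in HFD, and 159.0, 238.3, and 287.4 in PRF 50 livers, and Dcn was the most abundant marker. In a bulk liver library, fewer cells of a type and less RNA per cell cannot be told apart.

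Retinol-binding protein 4 (Rbp4; chr19:38116629-38125281, minus strand) carries retinol in the blood. Log2 values of 12.21, 11.67, and 11.55 in ND, 12.25, 11.90, and 11.83 in HFD, and 11.65, 11.66, and 11.96 in PRF 50 livers were found. ND mouse 6 and HFD mouse 1 were the highest, and all 3 groups overlapped. The log2 fold changes were -0.24 for PRF 50 vs. HFD (95% interval -0.67 to 0.20), 0.18 for HFD vs. ND (-0.37 to 0.73), and -0.055 for PRF 50 vs. ND (-0.57 to 0.46), and none was called. Rbp4 and Cyp26a1 lie 415.1 kb apart on chromosome 19.

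Retinol saturase (Retsat; chr6:72598475-72608425, plus strand) turns retinol into a dihydroretinol. Its log2 values were 7.11, 7.28, and 6.97 in ND, 7.77, 7.72, and 7.72 in HFD, and 6.01, 6.75, and 6.33 in PRF 50 livers. The 3 groups were fully separate, with HFD highest, ND between, and PRF 50 lowest, and the HFD livers were the least spread. Estimated fragments behind each value ran from 2129 to 11394. The call of PRF 50 vs. HFD (log2 fold change -1.38, SE 0.18, adjusted p = 0.0170) was lost without HFD mouse 2 (adjusted p = 0.0648) or HFD mouse 3 (0.0654). In HFD vs. ND the log2 fold change was 0.62 (95% interval 0.34 to 0.89), called only without a trend (adjusted p = 0.0493), over 7 other settings with adjusted p of 0.0493 to 0.124. For PRF 50 vs. ND the interval was -1.21 to -0.31, with adjusted p of 0.0740 to 0.314 over those settings.

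**Figure D2:**
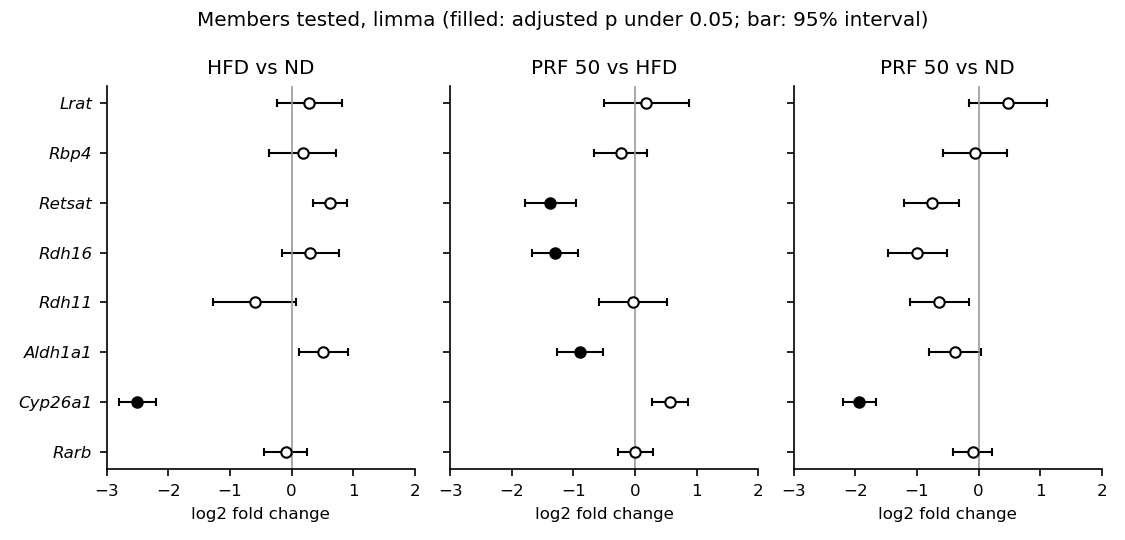
Log2 fold changes of the 8 tested members in 3 comparisons (x axis, log2(FPKM + 1) scale), from limma on 3 livers per group. Bars are 95% intervals and filled points have an adjusted p under 0.05. Cyp26a1 is at -2.50 in HFD vs. ND and -1.94 in PRF 50 vs. ND, and Retsat, Rdh16, and Aldh1a1 are filled in PRF 50 vs. HFD.

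Rdh16 (chr10:127801152-127846565, plus strand) and Rdh11 (chr12:79174337-79192293, minus strand) encode short-chain dehydrogenases that act on retinol and retinal. Rdh16 was 5.29, 5.20, and 5.88 in ND, 5.55, 5.74, and 6.00 in HFD, and 4.36, 4.75, and 4.28 in PRF 50 livers. Every PRF 50 liver was below every ND and HFD liver, while ND and HFD livers overlapped. The call of PRF 50 vs. HFD (log2 fold change -1.30, SE 0.16, adjusted p = 0.0150) was lost without PRF 50 mouse 3 (adjusted p = 0.0534), HFD mouse 2 (0.0604), or HFD mouse 3 (0.0539). The 95% interval of the log2 fold change of PRF 50 vs. ND was -1.47 to -0.52, and the adjusted p was 0.1004 and did not fall below 0.0523 in any of 7 other settings. Rdh16 shares 19655 bases of its span and its strand with the pseudogene Rdh18-ps, which lay at 0.023 to 0.403 FPKM, and it is 8.46 kb from its paralog Rdh9, so fragments from similar copies may have been assigned to either. Rdh11 was 4.41, 4.44, and 5.18 in ND, 4.41, 4.35, and 3.47 in HFD, and 3.99, 4.18, and 3.96 in PRF 50 livers. ND mouse 9 was the highest liver and HFD mouse 3 the lowest. The ND livers lay above all others, by less than 0.01 between ND mouse 6 and HFD mouse 1, and no comparison called Rdh11. Its log2 fold changes were -0.60 in HFD vs. ND (95% interval -1.27 to 0.072), -0.63 in PRF 50 vs. ND (-1.11 to -0.15), and -0.033 in PRF 50 vs. HFD (-0.59 to 0.53), the last of which took the opposite sign with quantile normalization (0.012). When 1 liver was left out, HFD vs. ND ran from -0.77 to -0.30 (without HFD mouse 3) and PRF 50 vs. ND from -0.77 to -0.38 (without ND mouse 9).

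Aldh1a1 (chr19:20492715-20643465, plus strand) encodes a retinal dehydrogenase that makes retinoic acid and is abundant in hepatocytes. Its values were 9.61, 9.59, and 9.18 in ND, 9.85, 9.93, and 10.16 in HFD, and 9.27, 9.16, and 8.83 in PRF 50 livers. HFD livers were above all others, and PRF 50 livers overlapped with ND through ND mouse 9. The mean fell from 1012 ± 114 FPKM in HFD to 547 ± 85 FPKM in PRF 50 livers (SD, n = 3). The log2 fold change of PRF 50 vs. HFD was -0.89 (SE 0.16, adjusted p = 0.0335, lower in 3 of 3 livers). The call was lost in each of the 6 fits without 1 liver (adjusted p of 0.0502 to 0.109), without a minimum level (0.0727), and with quantile normalization (0.0678), while the log2 fold change stayed between -0.99 and -0.76 over the smaller sets. HFD vs. ND gave 0.52 (95% interval 0.12 to 0.91, adjusted p = 0.225) and PRF 50 vs. ND gave -0.38 (-0.80 to 0.045, adjusted p = 0.448), which was -0.16 with quantile normalization and -0.25 without PRF 50 mouse 10. The opposite-strand gene C730002L08Rik, which overlaps 59616 bases of Aldh1a1, was below the level tested, at log2 values of 0.63, 0.51, and 0.63 in ND, 1.08, 0.97, and 0.99 in HFD, and 0.52, 0.40, and 0.36 in PRF 50 livers. As for Aldh1a1, its HFD livers were above all others and its ND and PRF 50 livers overlapped. Its paralog Aldh1a7, named after its values were seen, was 7.45, 7.25, and 7.43 in ND, 6.88, 6.85, and 7.04 in HFD, and 6.85, 6.49, and 6.20 in PRF 50 livers. Every HFD liver of Aldh1a7 was below every ND liver, unlike in Aldh1a1. Every PRF 50 liver was below every HFD liver, as in Aldh1a1, by less than 0.01 at the closest pair, with a log2 fold change of -0.41 that was not called (adjusted p = 0.2175).

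Cyp26a1 (chr19:37697798-37701536, plus strand), the member whose promoter stretch carries a DR5, encodes the main hydroxylase of retinoic acid in liver. Its log2 values were 4.18, 4.28, and 4.01 in ND, 1.68, 1.83, and 1.45 in HFD, and 2.35, 2.20, and 2.11 in PRF 50 livers. Every HFD and PRF 50 liver was below every ND liver, and every PRF 50 liver was above every HFD liver. The mean was 16.9 ± 1.6 FPKM in ND, 2.16 ± 0.41 in HFD, and 3.66 ± 0.39 in PRF 50 livers (SD, n = 3). The ND mean was 7.81 times the HFD mean and 4.61 times the PRF 50 mean. The estimated fragments behind these values were 340 to 425 in ND, 45 to 61 in HFD, and 65 to 110 in PRF 50 livers. HFD vs. ND gave a log2 fold change of -2.50 (SE 0.13, adjusted p = 0.000281), the 2nd smallest p and the 10th largest fall of 9978 genes. It was called in all 6 fits without 1 liver (adjusted p of 0.000753 to 0.00318). PRF 50 vs. ND gave -1.94 (SE 0.12, adjusted p = 0.00147), the smallest p of 10051 genes, and it was called in all 6 fits without 1 liver (0.00328 to 0.0189). PRF 50 vs. HFD gave 0.57 (95% interval 0.27 to 0.86, adjusted p = 0.0597), which reached 0.0372 with all 9 livers in 1 fit and 0.0372 to 0.115 over the 6 settings, and was not called by the fit used here. With a minimum of 10 FPKM, Cyp26a1 was not tested in HFD vs. ND or in PRF 50 vs. HFD.

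Hepatocytes near the central vein and near the portal vein differ in many enzymes, and markers of both were read beside Cyp26a1. All 16 pericentral markers were tested and limma called 0 in each comparison, with 3 at an unadjusted p under 0.05 in HFD vs. ND and 2 in PRF 50 vs. ND. Their median log2 fold change was -0.070 in HFD vs. ND and 0.032 in PRF 50 vs. ND. The share of all genes at that p was not counted. Of the periportal markers, limma called 0 of 9 in HFD vs. ND, with a median log2 fold change of -0.61 and 7 at an unadjusted p under 0.05, and 0 of 10 in PRF 50 vs. ND, with a median of -0.20 and 2 at that p. Their part in the Cyp26a1 difference was not tested.

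Cyp26b1 (chr6:84571414-84593908, minus strand) belongs to the same family and was the least abundant member. Its values were 0.80, 0.92, and 0.48 in ND, 0.08, 0.49, and 0.93 in HFD, and 0.59, 0.83, and 1.001 in PRF 50 livers. The groups overlapped, and the HFD livers ran from about 3 estimated fragments in mouse 1 to 73 in mouse 3. Without a minimum level its log2 fold changes were 0.31 for PRF 50 vs. HFD (adjusted p = 0.572), -0.23 for HFD vs. ND (0.726), and 0.076 for PRF 50 vs. ND (0.874), and none was called.

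Retinoic acid receptor beta (Rarb; chr14:16430839-16819156, minus strand) is both a receptor and a known target of retinoic acid, and its promoter carries the other DR5. Its log2 values were 1.63, 1.44, and 1.20 in ND, 1.49, 1.36, and 1.14 in HFD, and 1.38, 1.28, and 1.33 in PRF 50 livers. The groups overlapped and lay within 0.10 of each other in mean. The log2 fold changes were 0.0041 for PRF 50 vs. HFD (95% interval -0.28 to 0.29), -0.098 for HFD vs. ND (-0.45 to 0.26), and -0.094 for PRF 50 vs. ND (-0.41 to 0.23), with 51 to 78 estimated fragments per liver. Top2b on the opposite strand shares 4624 bases with Rarb and lay at 7.75 to 10.9 FPKM. Whether the counting used the strand is not given in the sources used here, and without it fragments from the shared bases cannot be assigned to either gene.

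The rest of the pathway was read from a list of 57 genes. The tables held 56 of them, 7 were at 0 in all livers, and 39 reached the level tested in PRF 50 vs. HFD and in HFD vs. ND, and 38 in PRF 50 vs. ND. PRF 50 vs. HFD had 0 called higher and 6 lower, against 144 and 218 of all 10084 genes, with a median log2 fold change of -0.14. For HFD vs. ND limma called 0, against 70 higher and 63 lower of all 9978 genes, with a median of 0.014. At an unadjusted p under 0.05 were 7 of the 39 tested, and the share of all genes at that p was not counted. Cyp2c39 was called higher in HFD with quantile normalization and without HFD mouse 1, and Rdh9 with a minimum of 10 FPKM. PRF 50 vs. ND had 0 called higher and 3 lower, against 16 and 30 of all 10051 genes, with a median of -0.16.

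Of the 6 genes called lower in PRF 50 vs. HFD, 4 were of ester formation and hydrolysis. The other tested genes of that role were not called there. These were Ces1g (log2 fold change -0.78, adjusted p = 0.302), Dgat1 (-0.27, 0.244), and Lipe (-0.30, 0.586), each with overlapping groups. Carboxylesterases of the Ces1 family split esters, and Ces1d was 8.56, 8.51, and 8.69 in ND, 9.34, 8.60, and 8.68 in HFD, and 7.38, 7.45, and 7.46 in PRF 50 livers. All PRF 50 livers were below all others. Its log2 fold change was -1.44 in PRF 50 vs. HFD (SE 0.19, adjusted p = 0.0185) and -1.16 in PRF 50 vs. ND (SE 0.11, adjusted p = 0.0116). Ces1e gave -1.13 (adjusted p = 0.0212) and -1.55 (0.00409), and Ces1f gave -0.90 (0.0235) and -1.09 (0.0152), again with every PRF 50 liver below the other livers. The PRF 50 vs. HFD calls of these 3 were lost without PRF 50 mouse 3 (adjusted p of 0.0611, 0.0611, and 0.0713 for Ces1d, Ces1e, and Ces1f), HFD mouse 2 (0.0516, 0.0603, and 0.0868), or HFD mouse 3 (0.0539, 0.0529, and 0.0529). Against ND, Ces1d and Ces1f were not called without PRF 50 mouse 3 (0.0671 and 0.0743) or ND mouse 7 (0.0734 and 0.0747), and Ces1e was called in all 6 fits. The Ces1 genes are close paralogs, and fragments shared between them make single values uncertain.

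Beside the carboxylesterases, 3 more genes were called lower in PRF 50 vs. HFD. Lipa, which encodes lysosomal acid lipase, gave -0.57 (adjusted p = 0.0443), and Dhrs4, a retinal reductase, gave -0.46 (0.0321). Both calls were lost in each of the 6 fits without 1 liver (adjusted p of 0.0658 to 0.152 for Lipa and 0.0512 to 0.113 for Dhrs4) and with quantile normalization (0.108 and 0.0776), and that of Lipa also without a minimum level (0.0759). Cyp2c39, a cytochrome P450 of retinoic acid breakdown, was 0.85, 1.06, and 1.31 in ND, 1.72, 2.18, and 2.29 in HFD, and 0.49, 1.17, and 0.33 in PRF 50 livers. Its HFD livers were above all others. It gave -1.40 in PRF 50 vs. HFD (SE 0.25, adjusted p = 0.0336) and 0.99 in HFD vs. ND (SE 0.19, adjusted p = 0.0521), and the call was lost without PRF 50 mouse 3 (0.0926) or mouse 10 (0.0711), without HFD mouse 2 (0.109) or mouse 3 (0.115), and without a minimum level (0.0731). With a pseudocount of 0.1, the PRF 50 vs. HFD value of Cyp2c39 was -2.39 (adjusted p = 0.0444). Among the genes past an unadjusted p under 0.05 and a fold above 2 but not called were Fabp5 (1.60 in PRF 50 vs. HFD, 0.0949, and -1.95 in HFD vs. ND, 0.261) and Zbtb16 (-1.45 in PRF 50 vs. HFD, 0.0549, and -1.11 in PRF 50 vs. ND, 0.181). Zbtb16 was called in PRF 50 vs. HFD with a pseudocount of 0.1 (log2 fold change -2.375, adjusted p = 0.0372). It was also called there without HFD mouse 1 (-1.07, 0.0373), where Scarb1 was called too, higher in PRF 50. In PRF 50 vs. ND, Zbtb16 was -1.90 with a pseudocount of 0.1 and was not called (0.155). Fabp5 moved with single livers, from 1.10 (without HFD mouse 3) to 2.01 in PRF 50 vs. HFD and from -2.57 to -1.14 (without ND mouse 9) in HFD vs. ND, where the groups overlapped.

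Members aside, the most abundant genes of the list by role, in mean FPKM over 9 livers, were Ttr (5392, transport), Fabp5 (25.0, cellular binding), Ces1d (345.8, esters), Bco2 (12.9, carotenoid cleavage), Adh1 (1618, dehydrogenases), Aldh8a1 (151.7, retinal oxidation), Cyp2c39 (1.67, breakdown), Rxra (89.8, receptors), and Rarres2 (1017, responsive genes). Of these, Ttr, the carrier that pairs with Rbp4, was 12.84, 12.37, and 12.08 in ND, 12.74, 12.62, and 12.53 in HFD, and 12.10, 11.97, and 11.98 in PRF 50 livers. PRF 50 livers were below HFD livers and overlapped with ND livers. It gave -0.62 in PRF 50 vs. HFD with an adjusted p of 0.0865, and it was called with a minimum of 10 FPKM, with quantile normalization, and without a trend.

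**Figure D3:**
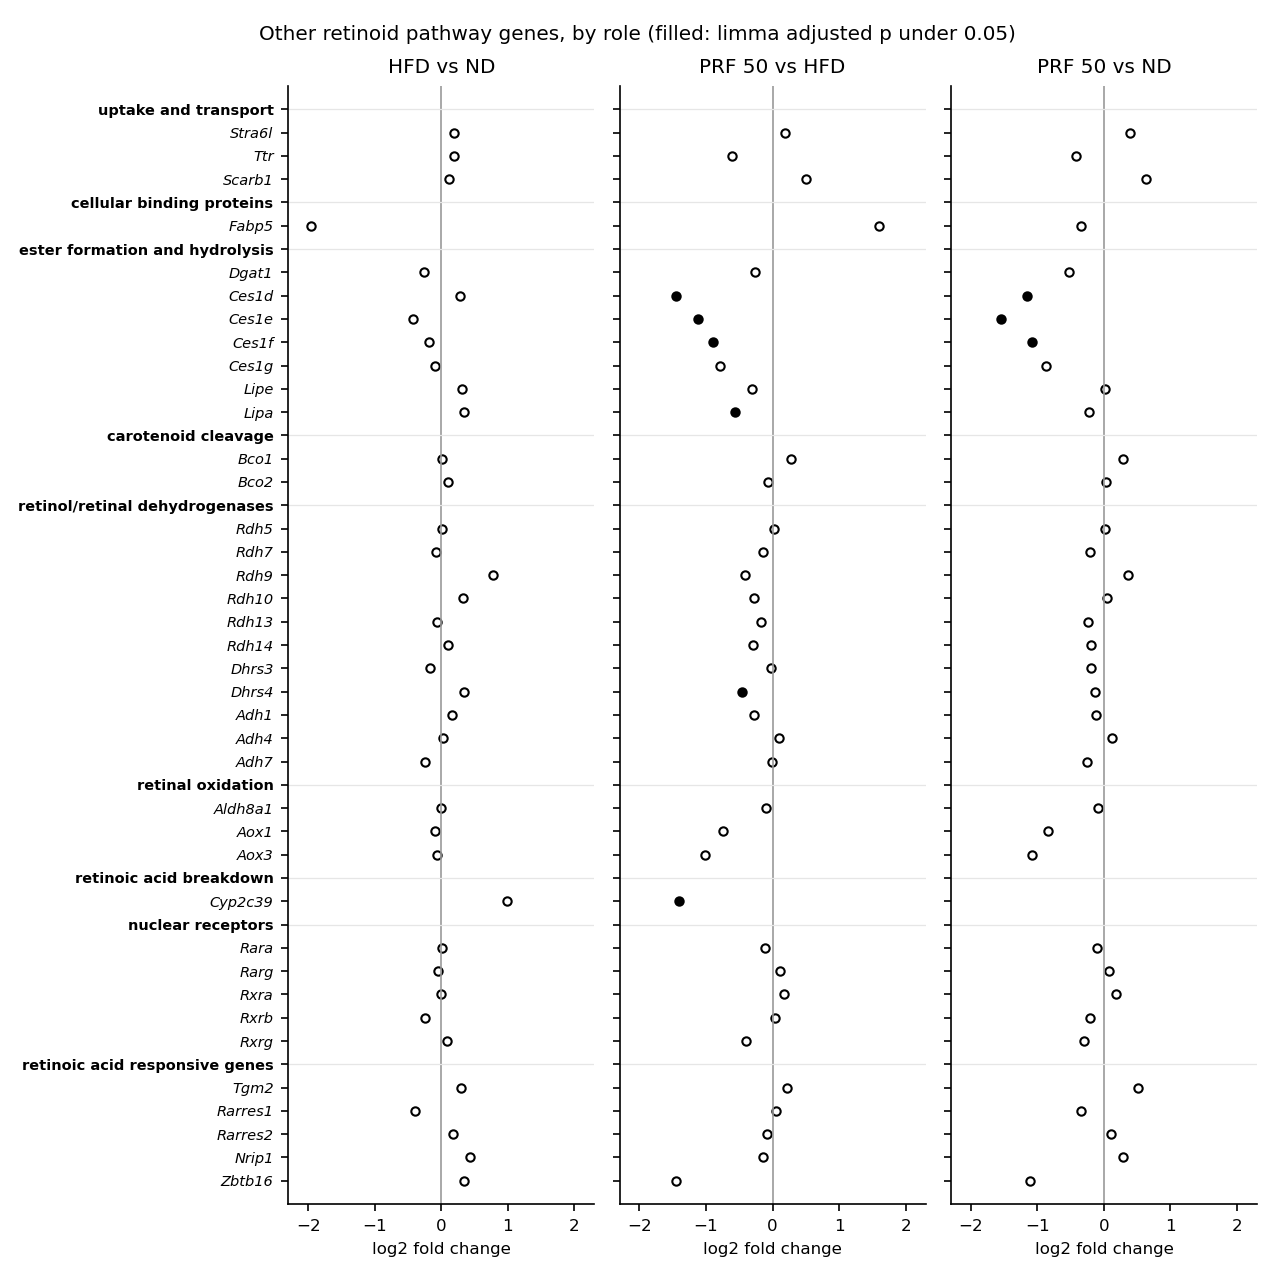
Log2 fold changes (x axis, log2(FPKM + 1) scale) of other retinoid pathway genes that reached a mean of 1 FPKM, 1 line per gene, grouped by role, in 3 comparisons of 3 against 3 livers. Filled points have a limma adjusted p under 0.05: 6 genes in PRF 50 vs. HFD and 3 in PRF 50 vs. ND, all to the left of 0.

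For the 3 members whose group means spanned at least 1 on the log2 scale, the most similar of 10047 genes were found by the root-mean-square difference of profiles centred over the 9 livers. Retsat was closest to Slc25a47 (0.21 on the log2 scale), Abhd6 (0.22), and Aldh3a2 (0.22). Rdh16 was closest to Fitm1 (0.22), Pparg (0.23), and Ehhadh (0.25). Cyp26a1 had less close neighbours, Cyp2c55 (0.33), Ces2a (0.49), and Plk3 (0.55). Cyp2c55 had group means of 2.87 in ND, 0.87 in HFD, and 0.81 in PRF 50 livers, and Ces2a had 8.21, 6.19, and 6.59. These are descriptions of profiles, and shared control was not tested.

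**Figure D4:**
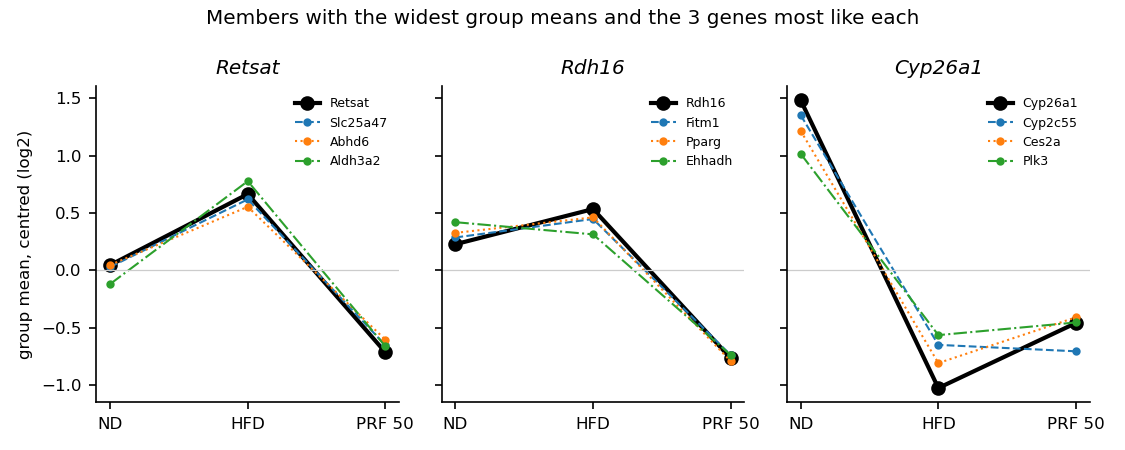
Group means (y axis, log2 scale, each gene centred on the mean of its 3 group means) of Retsat, Rdh16, and Cyp26a1 in black and of the 3 genes with the smallest root-mean-square difference to each over 9 livers. Lines join group means and no error is drawn. Cyp26a1 and its neighbours are highest in ND, and Retsat and Rdh16 with theirs are lowest in PRF 50.

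Markers of other cell types were read beside the PRF 50 vs. HFD differences. Of 11 Kupffer cell and macrophage markers, 9 were tested and 7 were called higher in PRF 50 (median log2 fold change 1.40), with none of the 11 at 0 in all livers. Their summed level was 64.4, 106.8, and 141.0 FPKM in ND, 67.1, 108.4, and 109.9 in HFD, and 359.7, 218.0, and 246.9 in PRF 50 livers, and Cd5l was the most abundant. Without PRF 50 mouse 3 or HFD mouse 3, 0 were called, without HFD mouse 2, 1, without PRF 50 mouse 10, 2, without HFD mouse 1, 6, and without PRF 50 mouse 9, 7, while the median log2 fold change stayed between 1.16 and 1.555. With all 9 livers in 1 fit 4 were called, without a minimum level 2 of 11, and with a minimum of 10 FPKM 4 of 6. In HFD vs. ND 1 of 9 was called, Cd9, lower in HFD, which was lost in 5 of the 6 fits without 1 liver (all but that without HFD mouse 2), with all 9 livers in 1 fit, and without a minimum level. In PRF 50 vs. ND limma called 0, with 9 at an unadjusted p under 0.05 and a median log2 fold change of 1.33, while 2 were called higher with all 9 livers in 1 fit (Cd68 and Timd4), 1 without PRF 50 mouse 9 (Marco), and 2 without ND mouse 9 (Timd4 and Vsig4). Their part in the differences of Retsat, Rdh16, Aldh1a1, and the carboxylesterases was not tested.

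Among the other lists, limma called 0 of 10 hepatocyte, 0 of 16 pericentral, and 0 of 10 endothelial markers in PRF 50 vs. HFD. It called 1 of 9 periportal markers, Cdh1, higher. Of the hepatocyte, pericentral, and endothelial markers, 3, 3, and 1 had an unadjusted p under 0.05, again without a share of all genes. Lymphocyte markers did not reach the level tested, and cholangiocyte (1 tested), adipocyte (2), pancreas (1), and erythroid markers (4) had 0 called in PRF 50 vs. HFD, with 1 adipocyte marker and none of the rest at an unadjusted p under 0.05. That marker was Cfd, at a log2 fold change of -2.14 (adjusted p = 0.155) with overlapping groups, and the other tested was Fabp4, at -0.042. Lep and Plin1 of the adipocyte list and Cpa1 and Prss2 of the pancreas list were at 0 in all livers.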

How the data were processed

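Liver RNA-Seq of 9 mice was analysed, 3 each of ND, HFD, and PRF 50, grouped by the sample labels. The authors made poly(A) libraries with a directional kit, used BBMap and FASTX_Trimmer to trim the reads and TopHat to map them to mm10 (per the submitters' processing notes), estimated FPKM with Cufflinks, and normalized by a geometric method that they state used EdgeR. The authors deposited log2 values, taken as log2(FPKM + 1), where the added 1 is inferred from a lowest value of 0. Tool versions, annotation, and use of strand in counting are not given in the sources used here.

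Groups were compared with limma (version 3.58.1, lmFit and eBayes with a trend) in R 4.3.3, on the 6 livers of each comparison and genes averaging 1 FPKM or more, with Benjamini-Hochberg adjustment over all genes tested. Every p is two-sided and from limma. The script was tested on simulated data. Depth was estimated from the step between low FPKM values times transcript length, where 67.9% to 74.9% of such values were within 0.1 of a whole number of fragments. Estimated fragments come from this step and the longest transcript. Positions and lengths are from GENCODE M21 on GRCm38 and promoters from RefSeq GRCm38.p6, read with Python 3.11.15.

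The named genes are all members, pathway genes past either criterion in any comparison, the most abundant of each role, and the 3 most similar genes of wide-ranging members. Of these, 1 pathway gene is not reported here by itself, and the list counts include it. Alternatives were all livers in 1 fit, a pseudocount of 0.1, quantile normalization, no minimum level, no trend, a minimum of 10 FPKM, scaling by median of ratios, and each liver left out. Those for pathway genes and the Kupffer list were chosen after seeing the data. The members and lists were chosen with earlier results of these data known.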

Additional observations from a re-analysis of the deposited data

How the results depend on the processing

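No paired analysis was possible because each liver came from a different mouse and the mouse numbers carry no pairing between groups. For PRF 50 vs. HFD, the 362 genes called became 126 without a minimum level and 15 (without HFD mouse 3) to 242 (without PRF 50 mouse 9) when 1 liver was left out, and the 3 members called became 0 (without HFD mouse 2 or HFD mouse 3) to 2. In HFD vs. ND, the 133 genes called became 37 without a minimum level and 35 (without HFD mouse 3) to 140 (without HFD mouse 1), and the 1 member called became 0 with a minimum of 10 FPKM, where Cyp26a1 was not tested, and 2 without a trend, where Retsat joined, and it was 1 in all 6 smaller sets. In PRF 50 vs. ND, the 46 genes called became 102 with all 9 livers in 1 fit, 11 without a minimum level, and 4 (without ND mouse 7) to 71 (without PRF 50 mouse 10), with 1 member called throughout. Directions that reversed belonged to members that were never called. In PRF 50 vs. HFD with quantile normalization, Rdh11 was 0.012 and Rarb was -0.065, and when 1 liver was left out Lrat ran from -0.11 to 0.42, Rdh11 from -0.33 to 0.13, and Rarb from -0.091 to 0.085. In HFD vs. ND, Rarb ran from -0.21 to 0.0050. In PRF 50 vs. ND, Rbp4 was 0.037 with quantile normalization and ran from -0.19 to 0.15, and Rarb ran from -0.20 to 0.0091. Other uncalled member values kept their direction but moved by over 1.5 times when 1 liver was left out. In HFD vs. ND these were Lrat (0.11 to 0.50), Rbp4 (0.050 to 0.38), Rdh16 (0.18 to 0.52), and Rdh11 (-0.77 to -0.30). In PRF 50 vs. HFD it was Rbp4 (-0.34 to -0.11). In PRF 50 vs. ND they were Lrat (0.18 to 0.71), Rdh11 (-0.77 to -0.38), and Aldh1a1 (-0.52 to -0.25). With quantile normalization Rbp4 was 0.32 in HFD vs. ND. No scaling moved the median of all genes by over 0.1. Sets without 1 liver hold fewer livers, and fits without a minimum adjust over more genes, and the cause of the other changes was not tested.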
